A study of Mus musculus with 14 samples.

Results

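PreB cells were compared with ProB cells on 2 arrays each, which are 4 of the 14 arrays of the series; the members of both groups were taken by the array titles, and every gene read by a probe set with 1 gene symbol was tested. Both populations were sorted fresh from the bone marrow of C57Bl6 mice aged 8 to 12 weeks that had received neither a transplant nor a treatment. The other arrays hold common lymphoid progenitors (CLP) and marrow cells of irradiated mice engrafted with wild type or Pax5 knockout fetal liver. For the engrafted arrays the liver was from embryonic day 15 and the time was 4 weeks after transplant. The age given for all 14 arrays is 8 to 12 weeks. Which markers and gates defined the ProB and PreB sorts is not given in the sources used here; only the group names are. The arrays are labelled as biological replicates, but nothing states whether they came from separate mice or from pools. The p-values therefore measure spread between arrays of a group, pooled over the 6 groups of the series and not taken from these 4 arrays alone. The PreB arrays carry the numbers 2 and 3 in their titles and are called PreB arrays 2 and 3 here; the ProB arrays are numbered 1 and 2.

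B lymphocytes are made in the bone marrow in steps. Pro-B cells assemble an immunoglobulin heavy chain gene by V(D)J recombination, and a successful heavy chain pairs with the surrogate light chain, built from λ5 (Igll1) and VpreB (Vpreb1), to form the pre-B cell receptor. That receptor and interleukin-7 drive a phase of division, after which small resting pre-B cells switch the surrogate light chain off and recombine a light chain gene.

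The values are log2 signals of an Affymetrix 3' array, 1 per probe set, on a scale from 2.32 to 16.08, where 2.32 is a floor shared by all arrays. A gene is given by its brightest probe set, and a group is called at the floor when all its arrays lie within 0.5 of 2.32. A difference from such a group is a lower bound of the change, and where both groups are at the floor no change is given. On the 4 arrays 56.3% to 57.8% of the probe sets lay within 0.5 of the floor. The correlation over all probe sets was 0.986 between the PreB arrays, 0.976 between the ProB arrays and 0.916 to 0.929 between the groups, as a description across probe sets that are not independent.

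A pair of technical and biological properties moved with the groups. The gap between the 3' and 5' control probe sets of beta-actin, which widens when RNA is broken or copied short, was 2.73 and 3.67 in ProB and 7.27 and 6.71 in PreB on the log2 scale, and no array outside PreB went above 5.57. The same gap for Gapdh was 2.40 and 3.32 in ProB and 4.88 and 4.35 in PreB, and here 2 engrafted arrays, at 5.44 and 5.79, lay above PreB. The arrays also differed in sex: Xist, the RNA that silences an X chromosome in females, had values of 10.71 and 11.49 in ProB against 2.33 and 2.33 in PreB, and the Y-linked gene Eif2s3y had 2.32 and 2.32 in ProB against 11.04 and 11.01 in PreB. Sex and stage cannot be told apart between these groups, and the part that RNA quality plays in each result was not tested. Most lists are followed by a fit with the actin gap as a covariate and one with a term for arrays high in Xist. Both were chosen after seeing the data, and they borrow the slope or the term from the other groups. The gap was widest on both PreB arrays, so the first fit separates gap from stage poorly. Some differences were smaller in it and others larger, so a lost call there does not by itself mean a smaller difference.

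Of 18193 genes tested in limma, 1156 (6.35%) were higher in PreB and 944 (5.19%) were lower at an adjusted p under 0.05, and the median difference over all genes was 0.00. The 2 counts were 294 and 193 when the 4 arrays were fitted alone, 224 (1.23%) and 118 (0.649%) with the actin gap as a covariate, and 546 (3.0%) and 200 (1.10%) with the Xist term. Without regard to a test, both PreB arrays lay above both ProB arrays for 22.4% of the genes and below them for 19.4%. Many named genes were picked for large differences called in several fits, so separate groups among them were largely fixed by that choice. The lists below are to be read against the 6.35% and 5.19% of all genes called higher and lower. Without PreB array 2, 1189 genes were higher and 564 lower. Without PreB array 3 the counts were 1088 and 532, without ProB array 1 they were 868 and 1827, and without ProB array 2 they were 773 and 718. In the fit of all arrays and in all 4 fits that left out 1 array, 538 genes (2.96%) were higher and 372 (2.04%) lower. Of all genes, 725 were at the floor in ProB alone, 800 in PreB alone and 7355 in both groups. The calls from the floor were not shared evenly between directions. Of the genes called higher, 209 were at the floor in ProB alone, whereas 51 of those called lower were at the floor in PreB alone. Of the genes called higher and lower, 32 and 28 were at the floor in both groups.

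**Figure D1:**
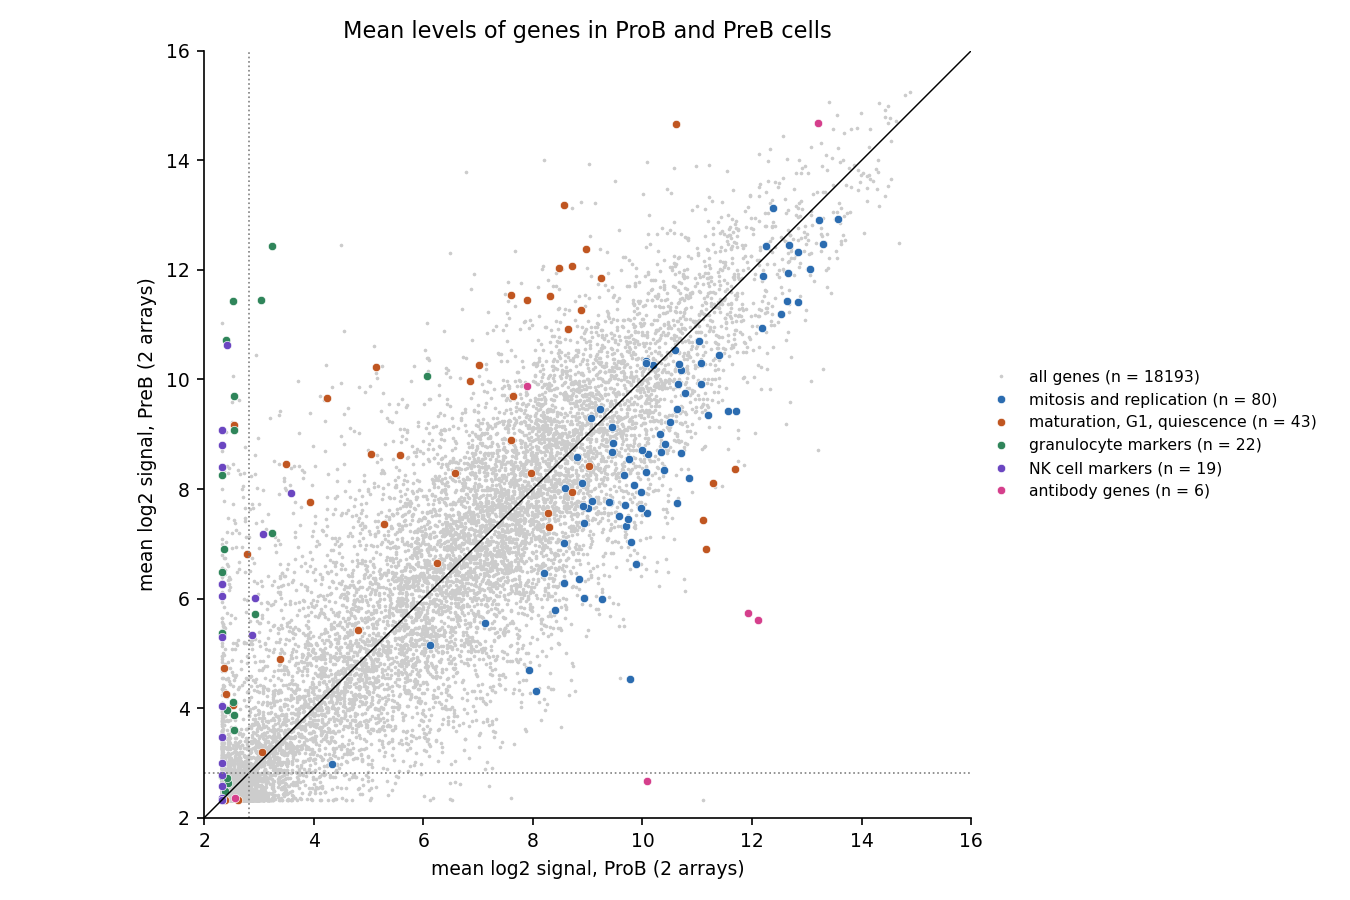
Mean log2 signal of each of 18193 genes on the 2 ProB arrays (horizontal axis) and the 2 PreB arrays (vertical axis); colours mark gene lists, the diagonal is equal signal and the dotted lines lie 0.5 above the floor. NK cell and granulocyte markers line the left edge, at or near the floor in ProB, and most mitosis and replication genes lie below the diagonal.

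The genes that define the stage moved in opposite directions. Igll1 (λ5) read 12.93 and 13.47 in ProB and 8.40 and 9.02 in PreB. Every PreB array lay below every ProB array, by a mean of -4.49 (SE 0.44, adjusted p = 0.000433). Its second, dim probe set read 2.32 and 3.60 in ProB and 4.82 and 3.66 in PreB and was not called; of all single probe sets with 1 symbol, 4.96% were called higher and 3.84% lower. Vpreb1, the partner of λ5, read 12.80 and 13.77 in ProB and 10.14 and 10.26 in PreB, a difference of -3.09 (SE 0.48, adjusted p = 0.00466). Both surrogate light chain genes thus stayed well above the floor in PreB. Their promoters are shown because these neighbouring genes on chromosome 16 fell together. The sequences are the 250 bases before the RefSeq start of each gene in GRCm38.p6, minus strand, at chr16:16863986-16864235 for Igll1 and chr16:16869256-16869505 for Vpreb1. Capitals mark CAGCTG, an E-box letter sequence that reads the same on both strands; it occurs in 13% of the 32851 promoters of that length in the table, and it is not in this window of Vpreb1.
Igll1: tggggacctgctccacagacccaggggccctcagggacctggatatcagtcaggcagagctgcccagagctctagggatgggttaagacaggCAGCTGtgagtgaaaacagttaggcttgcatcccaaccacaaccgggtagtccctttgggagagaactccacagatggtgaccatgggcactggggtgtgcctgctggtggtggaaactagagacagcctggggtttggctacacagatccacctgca
Vpreb1: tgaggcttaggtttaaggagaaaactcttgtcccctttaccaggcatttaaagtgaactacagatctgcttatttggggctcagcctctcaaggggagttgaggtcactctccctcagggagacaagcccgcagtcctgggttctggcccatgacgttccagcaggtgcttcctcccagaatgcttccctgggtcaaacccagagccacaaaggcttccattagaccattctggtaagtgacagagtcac

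Surface proteins used to stage B progenitors showed the same division. Cd2, an adhesion protein that appears at the pre-B stage, read 2.55 and 2.44 in ProB, which is the floor, and 9.66 and 9.52 in PreB (difference 7.09, SE 0.37, adjusted p = 1.21e-05). Il2ra, which encodes CD25, the classical marker of small pre-B cells, rose from 2.32 and 2.35 to 6.61 and 6.30 (4.12, SE 0.49, adjusted p = 0.00122). The wild type engrafted arrays, which entered neither group, read 7.93 to 9.28 for Cd2 and 5.17 to 6.62 for Il2ra. Enpep, the aminopeptidase BP-1, went the other way, from 9.01 and 8.77 to 5.78 and 6.03 (-2.99, SE 0.11, adjusted p = 1.31e-06). Ly6d, a marker of B lineage specification, rose from 6.55 and 5.02 to 8.68 and 8.88 (2.99, SE 0.55, adjusted p = 0.00972). Of the 16 measured surface proteins of this list, 7 rose and 1 fell, against 6.35% and 5.19% of all genes. The median difference was 0.31. Cd2, Enpep, Il2ra and Ly6d kept their call with the actin gap as a covariate, and the first 3 of them also with the Xist term. With PreB array 2 or ProB array 1 left out, 3 of the list were called higher, and with either of the others, 4.

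Several familiar stage genes were less clear. Spn, or CD43, a surface protein of pro-B cells, read 10.27 and 11.03 in ProB and 8.86 and 8.91 in PreB, and missed the threshold (-1.76, SE 0.49, adjusted p = 0.0534). Kit, the stem cell factor receptor, was low in both, at 5.32 and 4.89 in ProB and 4.89 and 4.61 in PreB (-0.35, SE 0.80, adjusted p = 1), and its groups touched. Ptprc, which encodes CD45 with its B220 form, read 10.71 and 10.46 against 13.02 and 12.73 (2.29, SE 0.55, adjusted p = 0.0304). Il7r, the receptor for interleukin-7, read 10.38 and 10.77 against 12.42 and 12.10 (1.68, SE 0.39, adjusted p = 0.0252). Both calls were lost without any 1 of the 4 arrays: the adjusted p was 0.0669 to 0.137 for Ptprc and 0.0635 to 0.12 for Il7r. Cd79a, a signalling chain of the B cell receptor, read 8.29 and 7.52 in ProB and 7.34 and 7.76 in PreB, and the groups overlapped (-0.35, SE 0.49, adjusted p = 0.863).

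**Figure D2:**
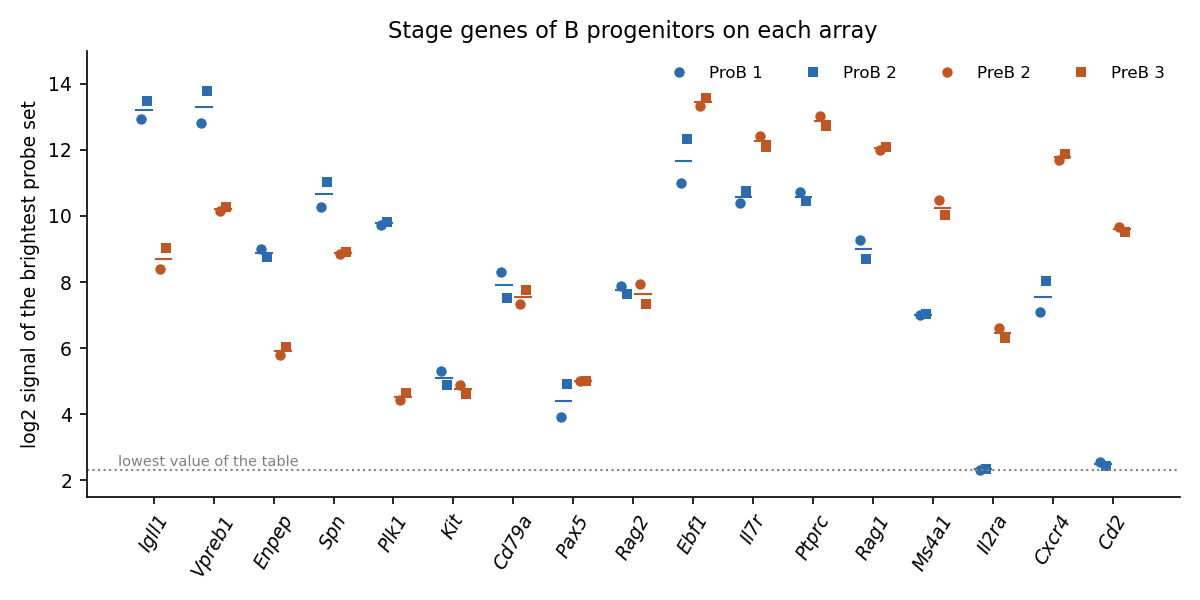
Log2 signal of 17 stage genes on each ProB array (blue) and PreB array (orange); short lines are group means and the dotted line is the lowest value of the table. Igll1, Vpreb1, Enpep and Plk1 lie lower in PreB, and Cd2, Cxcr4 and Il2ra higher, with Cd2 and Il2ra at the floor in ProB.

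The signalling chain behind the pre-B receptor did not move as a block. Of 17 measured genes 4 were higher and 3 lower, against 6.35% and 5.19% of all genes, with a median difference of 0.02. Syk, the kinase that binds the receptor's signalling tails, read 9.34 and 9.28 in ProB and 11.59 and 11.85 in PreB (2.41, SE 0.27, adjusted p = 0.000897). Its arrays did not overlap, and it kept its call in every fit described here. The other calls were Ighm, described with the antibody genes, and, named after their values were seen, the kinase Prkcb (1.82, SE 0.43), the adaptor Pik3ap1 (2.17, SE 0.44) and the phospholipase Plcg2 (-0.76, SE 0.20). Prkcb lost its call without any 1 array (adjusted p 0.0711 to 0.118). Pik3ap1 lost it without PreB array 2 (0.0722), PreB array 3 (0.0528) or ProB array 1 (0.0588), and Plcg2 without PreB array 2 (0.224), PreB array 3 (0.0532) or ProB array 2 (0.244). Igll1 and Syk remained of the 7 called genes with the actin gap or the Xist term.

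The recombination machinery was mixed as well. Rag1, a subunit of the recombinase that cuts antibody genes, read 9.28 and 8.70 in ProB and 12.01 and 12.08 in PreB, a clean separation with a difference of 3.05 (SE 0.80, adjusted p = 0.0428). That call was lost without any 1 array (adjusted p 0.0747 to 0.19). Rag2, its partner, read 7.89 and 7.65 against 7.95 and 7.34, and the groups overlapped (-0.12, SE 0.75). Lig4, the ligase of end joining, read 7.29 and 7.76 against 10.78 and 10.62 and was not called (3.18, SE 1.06, adjusted p = 0.1). Its SE also holds spread from other groups, such as 3.17 and 6.63 on the CLP arrays labelled Ly6D+. The 4 arrays fitted alone gave it an adjusted p of 0.0617. Of 12 measured genes of the list 2 were higher and 1 lower, against 6.35% and 5.19% of all genes. Apart from Rag1 these were the end joining factor Xrcc6 (1.52, SE 0.32) and Dntt (-2.50, SE 0.55), the polymerase that adds untemplated bases. Both were named after their values were seen. None of the 3 kept its call with the actin gap, and Dntt did with the Xist term. Dntt lost its call without PreB array 3 (adjusted p 0.12) or ProB array 2 (0.125), and Xrcc6 without PreB array 2 (0.0946), ProB array 1 (0.0707) or ProB array 2 (0.0528).

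Transcription factors of the lineage rose more often than they fell: of 28 measured, 14 were higher and 2 lower, against 6.35% and 5.19% of all genes, with a median difference of 1.60. Id2, which blocks E proteins, read 4.72 and 4.26 in ProB and 12.30 and 12.60 in PreB (7.96, SE 0.46, adjusted p = 2.37e-05), although 1 of its 3 probe sets was called. Id2 is also made by NK cells, whose markers rose on the same arrays; their part in its rise was not tested. Ikzf3 (Aiolos), which is induced by the pre-B receptor, rose from 6.15 and 7.41 to 10.27 and 10.50 (3.60, SE 0.33, adjusted p = 0.000303). Ikzf2 (Helios) went from 2.58 and 2.62, at the floor, to 6.41 and 6.56 (3.88, SE 0.26, adjusted p = 6.17e-05). Spib, an ETS factor of B cells, read 8.28 and 8.43 against 11.74 and 11.66 (3.34, SE 0.43, adjusted p = 0.00172). Klf2, which restrains division and homing, rose from 5.10 and 5.15 to 9.88 and 10.57 (5.10, SE 0.47, adjusted p = 0.000353). None of these 5 factors had overlapping groups, and both PreB arrays lay above both ProB arrays for 22.4% of all genes. The mean over all probe sets was smaller for Id2 (3.20), Ikzf3 (1.71) and Ikzf2 (1.33), of which 1 of 3 probe sets each was called. Pax5, the commitment factor, read 3.92 and 4.90 against 5.01 on both PreB arrays (0.59, SE 0.73, adjusted p = 0.809). Ebf1 read 10.99 and 12.33 against 13.34 and 13.58 and lay just outside the threshold (1.80, SE 0.50, adjusted p = 0.0538), and inside it without ProB array 2 (adjusted p 0.0244). Of the 16 calls 2 remained with the actin gap, Id2 and Ikzf2, and 8 remained with the Xist term.

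Receptors of later B cell stages were higher in PreB. Of 22 measured, 10 rose, against 6.35% of all genes, and 12 did not pass the test, with a median difference of 2.50. Cd83, an activation protein of B cells, read 2.54 on both ProB arrays, at the floor, and 9.24 and 9.10 in PreB (6.64, SE 0.55, adjusted p = 0.000189). Cd55, which protects cells from complement, rose from 3.49 and 3.50 to 8.53 and 8.38 (4.96, SE 0.33, adjusted p = 5.46e-05). Fcrla, which resembles Fc receptors and stays inside B cells, rose from 8.01 and 9.10 to 13.30 and 13.06 (4.62, SE 0.35, adjusted p = 0.000113), in 3 of 3 probe sets. Cd40, the receptor for T cell help, rose from 2.71 and 2.86 to 7.18 and 6.47 (4.04, SE 0.40, adjusted p = 0.00052). Fcmr, which binds IgM, read 5.15 and 4.93 against 8.84 and 8.44 (3.60, SE 0.27, adjusted p = 0.000117). Ms4a1, or CD20, read 7.01 and 7.02 against 10.47 and 10.04 (3.25, SE 0.46, adjusted p = 0.00278). In each of the 6 both PreB arrays lay above both ProB arrays, as for 22.4% of all genes. All 10 genes of the list called higher were above the floor on the 3 wild type engrafted arrays, as were 79.2% of all genes called higher in PreB and 49.5% of all genes, and those cells were sorted as B220 positive. With the actin gap 5 of the 10 remained called, among them Cd55, Cd83, Fcmr and Fcrla, and with the Xist term 7.

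Antigen presentation by MHC class II followed to a smaller extent, with 4 of 11 measured genes higher, against 6.35% of all genes. The median difference was 1.71. H2-Ob, which tunes peptide loading in B cells, read 8.17 and 7.72 in ProB and 11.11 and 11.06 in PreB (3.14, SE 0.37, adjusted p = 0.00115). Ctss, a protease that frees class II from its chaperone, read 10.97 and 11.42 against 13.01 and 12.79 (1.71, SE 0.31, adjusted p = 0.00894). The other 2, named after their values were seen, were the class II chain H2-Eb1 (3.60, SE 0.93), which lost its call without any 1 array (adjusted p 0.071 to 0.185), and the reductase Ifi30 (2.44, SE 0.49), which lost it without PreB array 2 (0.0707) or ProB array 1 (0.0585). Without PreB array 2, 2 genes of the list were called. All 4 lost their call with the actin gap as a covariate, and H2-Ob remained with the Xist term.

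Among 18 measured chemokine, homing and adhesion receptors 5 were higher and 1 lower, against 6.35% and 5.19% of all genes. The median difference was 1.20. Cxcr4, the receptor that holds B progenitors near the CXCL12-producing stroma, read 7.08 and 8.02 in ProB and 11.68 and 11.88 in PreB. The groups were far apart (4.23, SE 0.48, adjusted p = 0.000966), and the wild type engrafted arrays lay between them at 8.61 to 9.65. Ccr9, a gut and thymus homing receptor also made by plasmacytoid dendritic cells, rose from 2.93 and 2.97 to 10.49 and 10.38 (7.49, SE 0.92, adjusted p = 0.00141), in 2 of its 5 probe sets. The wild type engrafted arrays read 2.32 to 2.58 for Ccr9, at the floor, unlike for Cxcr4. The CLP arrays labelled Ly6D- read 10.18 and 10.51 for Ccr9, near PreB, and those labelled Ly6D+ 6.26 and 8.42. Gpr183, a sterol-sensing receptor that positions B cells, rose from 2.34 and 2.59 to 5.88 and 6.42 (3.69, SE 0.61, adjusted p = 0.00593). It was called in 1 of its 2 probe sets, whose mean difference was 2.13. Outside the naming rule were Ccr7 (2.80, SE 0.52), lost without PreB array 2 (adjusted p 0.0563), Cd44 (1.86, SE 0.49), lost without any 1 array (0.0798 to 0.196), and Icam2 (-1.51, SE 0.30), lost without PreB array 2 (0.0539), PreB array 3 (0.0599) or ProB array 2 (0.0786). None of the 6 kept its call with the actin gap, and 2, Ccr9 and Cxcr4, did with the Xist term.

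Genes of cell division were lower in PreB. Of 44 measured genes of mitosis and the spindle 18 fell, against 5.19% of all genes, and 26 did not pass the test, with a median difference of -1.50. Plk1, the kinase that drives mitotic entry and spindle assembly, read 9.73 and 9.83 in ProB and 4.43 and 4.63 in PreB (-5.25, SE 0.32, adjusted p = 3.27e-05). Aurka, the kinase of the centrosomes, fell from 9.31 and 9.20 to 6.0 and 5.98 (-3.27, SE 0.44, adjusted p = 0.00227). Kif20a, a motor of cytokinesis, fell from 9.87 and 9.92 to 6.45 and 6.81 (-3.27, SE 0.53, adjusted p = 0.00542). Cdk1, the cyclin-dependent kinase of mitosis, fell from 10.75 and 10.96 to 8.56 and 7.84 (-2.65, SE 0.31, adjusted p = 0.0011), and Tpx2, which activates Aurka, from 9.61 and 9.97 to 7.36 and 6.72 (-2.75, SE 0.35, adjusted p = 0.00171). The mean over probe sets was -1.63 for Aurka and -1.39 for Tpx2, each with 1 called probe set. None of the 5 reached the floor in PreB, and on the wild type engrafted arrays Plk1 read 9.03 to 9.10. Without 1 array the list held 10 to 14 calls: 11 without PreB array 2, 11 without PreB array 3 and 10 without ProB array 2. With the actin gap Plk1 remained of the 18, and with the Xist term 3 did, Aurka, Cdk1 and Plk1.

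The promoters of 3 of these genes are shown because they fell together and because CCAAT is a letter sequence long described in promoters of mitotic genes, next to TTTGAA, the core of the cell cycle homology region. Each run is the 250 bases before the RefSeq start in GRCm38.p6, at chr7:122159185-122159434 (plus strand) for Plk1, chr2:172370571-172370820 (minus strand) for Aurka and chr10:69352913-69353162 (minus strand) for Cdk1. Capitals mark CCAAT in all 3 (as ATTGG where it lies on the other strand) and TTTGAA in Cdk1, each searched on both strands; the motifs do not overlap in these runs.
Plk1: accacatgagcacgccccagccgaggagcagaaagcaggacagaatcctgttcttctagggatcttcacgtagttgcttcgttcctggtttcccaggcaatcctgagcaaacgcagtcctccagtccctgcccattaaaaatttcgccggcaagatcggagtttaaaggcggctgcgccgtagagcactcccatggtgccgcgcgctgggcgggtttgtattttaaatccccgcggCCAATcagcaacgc
Aurka: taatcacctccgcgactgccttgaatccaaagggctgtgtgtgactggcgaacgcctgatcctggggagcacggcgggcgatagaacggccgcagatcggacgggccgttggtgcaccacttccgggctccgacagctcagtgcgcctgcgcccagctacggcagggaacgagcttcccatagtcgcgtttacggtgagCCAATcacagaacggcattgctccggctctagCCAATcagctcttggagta
Cdk1: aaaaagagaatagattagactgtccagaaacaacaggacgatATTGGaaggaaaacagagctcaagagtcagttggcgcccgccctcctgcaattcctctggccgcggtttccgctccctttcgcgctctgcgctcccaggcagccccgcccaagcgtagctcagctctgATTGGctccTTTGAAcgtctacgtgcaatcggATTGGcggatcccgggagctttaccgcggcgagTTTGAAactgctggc

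CCAAT occurred in 33.8% of all 32851 promoters of the table and, per gene, in 39.4% of the measured genes with a promoter there. It occurred in 29 of the 37 mitosis genes that were matched. That share did not follow the call: 11 of the 14 matched mitosis genes that fell held CCAAT, and so did 18 of the 23 that were not called. TTTGAA occurred in 16% of all promoters, in 7 of those 14 and in 6 of those 23. These counts describe letters in a window and say nothing of binding.

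DNA replication and nucleotide synthesis showed the same direction, with 12 of 36 measured genes lower, against 5.19% of all genes. The other 24 were not called, and the median difference was -1.13. Gins2, a subunit of the replicative helicase, fell from 8.01 and 7.85 to 5.25 and 4.15 (-3.23, SE 0.51, adjusted p = 0.00465). Tk1, the thymidine kinase of S phase, fell from 9.06 and 8.81 to 5.90 and 6.12 (-2.92, SE 0.54, adjusted p = 0.00948). Mcm2, a helicase subunit, fell from 10.12 and 9.82 to 7.37 and 7.93 (-2.32, SE 0.35, adjusted p = 0.00399). Dut, which keeps uracil out of DNA, fell by 2.28 (SE 0.27, adjusted p = 0.00114), and Rrm1, a subunit of ribonucleotide reductase, by 2.14 (SE 0.37, adjusted p = 0.00737). No PreB array reached a ProB array in any of the 5, as for 19.4% of all genes. Leaving out PreB array 3 or ProB array 2 left 8 genes called lower. Of the 12, Fen1 remained with the actin gap and Dut with the Xist term.

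Regulators of G1 and of quiescence changed in both directions. Of 21 measured genes 11 were higher and 4 lower, against 6.35% and 5.19% of all genes, with a median difference of 2.08. The 4 that fell were the D cyclins Ccnd2 and Ccnd3 and the kinases Cdk4 and Cdk6. The other D cyclin, Ccnd1, named after its values were seen, was low in both groups, at 3.75 and 3.02 in ProB and 4.72 and 5.09 in PreB, and was not called (1.52, SE 0.78, adjusted p = 0.28). Ccnd3, the cyclin that pre-B cells need to divide, read 10.94 and 11.38 in ProB and 6.46 and 7.36 in PreB (-4.25, SE 0.43, adjusted p = 0.000555), in 1 of its 3 probe sets, whose mean difference was -1.39. Ccnd2 read 10.86 and 11.35 against 7.26 and 7.59 (-3.68, SE 0.38, adjusted p = 0.000622), in 6 of 7 probe sets. Cdk6 (-3.32, SE 0.40) and Cdk4 (-3.17, SE 0.48), the kinases of these cyclins, were named after their values were seen and were also called in all 4 fits without 1 array. Among those that rose, Btg2, an antiproliferative gene, went from 4.36 and 4.13 to 10.18 and 9.14 (5.42, SE 0.40, adjusted p = 0.000106). Btg1, its relative, went from 10.45 and 10.77 to 14.67 on both PreB arrays (4.06, SE 0.24, adjusted p = 2.87e-05). For Ccnd2, Ccnd3 and both Btg genes the groups stood apart, as they did upward for 22.4% and downward for 19.4% of all genes. All 11 genes called higher were above the floor on the 3 wild type engrafted arrays, as were 79.2% of all genes called higher. With the actin gap Btg1, Btg2, Ccnd2 and Cdkn1b, a brake on cyclin-dependent kinases, remained of the 15, and 9 remained with the Xist term. Of the higher genes, Ccng2 lost its call without any 1 array (adjusted p 0.0808 to 0.128), Tob1 without PreB array 2 (0.0672), PreB array 3 (0.0935) or ProB array 2 (0.101), and Klf4 without PreB array 2 (0.0507).

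**Figure D3:**
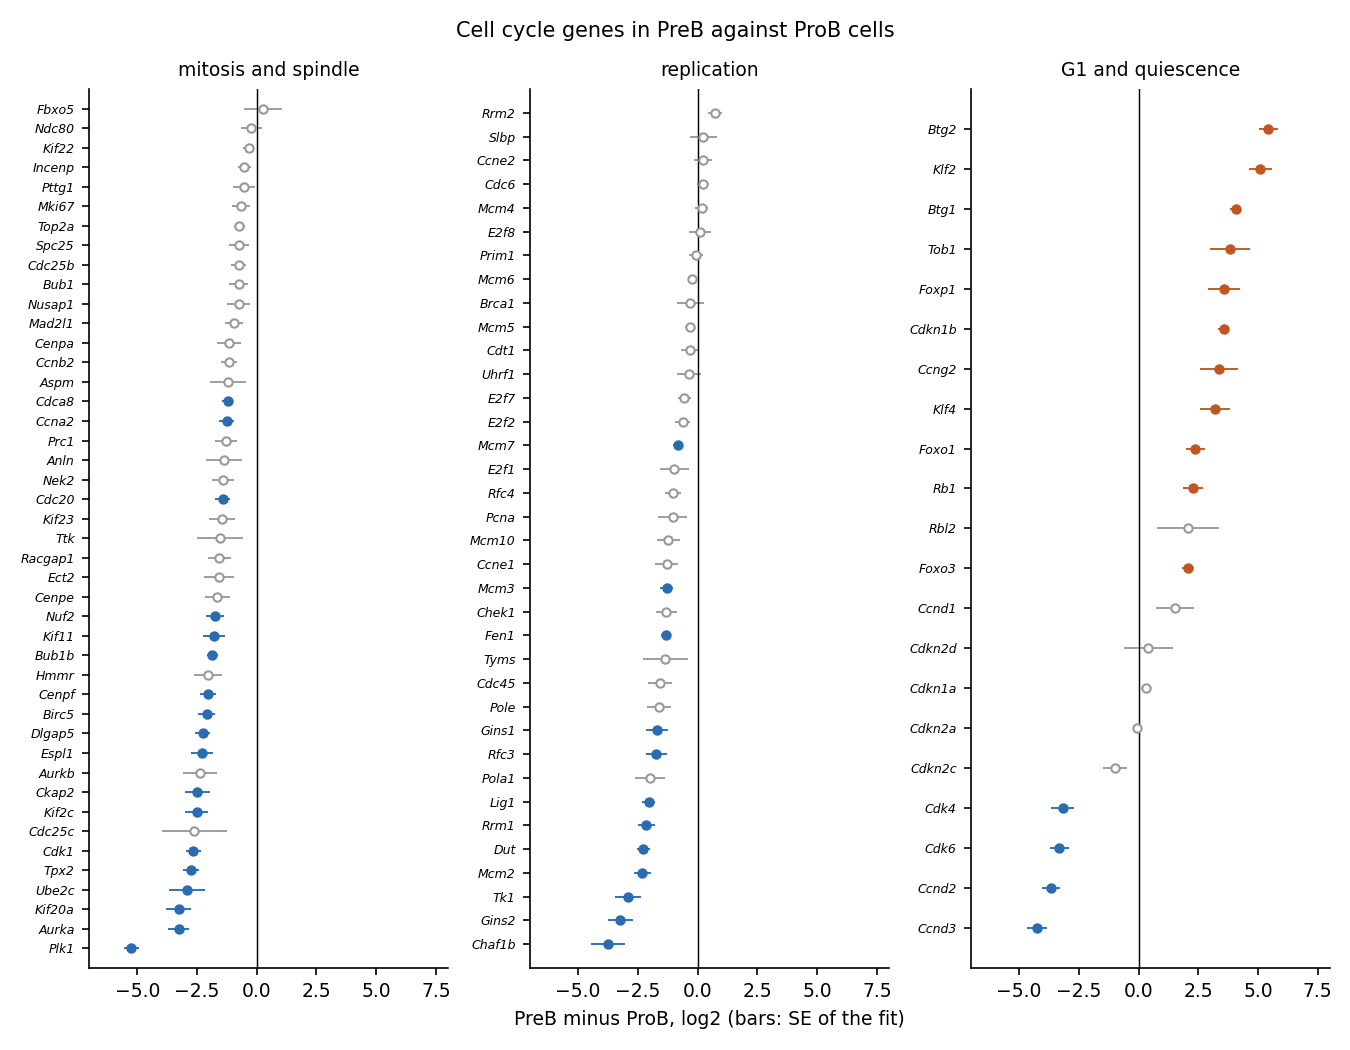
Difference between PreB and ProB (log2, bars are the standard error of the fit) for each measured gene of the mitosis, replication and G1 lists; filled points are called lower (blue) or higher (orange) and open points are not called. Plk1 lies lowest of the mitosis genes at -5.25, and Ccnd2, Ccnd3, Cdk4 and Cdk6 lie apart from the other G1 genes.

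Signalling through the interleukin-7 receptor and its feedback was split. Of 15 measured genes 6 were higher and 2 lower, against 6.35% and 5.19% of all genes, with a median difference of 0.50. Socs3, a feedback inhibitor of cytokine receptors, read 3.28 and 3.12 in ProB and 9.20 and 9.37 in PreB (6.09, SE 0.66, adjusted p = 0.000742). The survival kinase Pim1 read 7.93 and 8.92 against 11.70 and 12.19 (3.52, SE 0.42, adjusted p = 0.00131), and Pim2 3.82 and 3.88 against 6.03 and 6.46 (2.39, SE 0.37, adjusted p = 0.00464). Myc, which drives growth, went from 7.65 and 7.85 to 5.27 and 5.35 (-2.44, SE 0.44, adjusted p = 0.00857). In all 4 the groups were separate, as they were upward for 22.4% and downward for 19.4% of all genes. The other gene of the list that fell was Ccnd2. The rest of the calls were Il7r and, named after their values were seen, Mycn (1.76, SE 0.30) and the receptor chain Crlf2 (1.47, SE 0.37), which lost its call without PreB array 2 (adjusted p 0.136), PreB array 3 (0.104) or ProB array 1 (0.14). Il7r lost its call without any 1 array (adjusted p 0.0635 to 0.12). Of the 8, Ccnd2 remained with the actin gap, and with the Xist term 4 did, Ccnd2, Mycn, Pim1 and Socs3. The wild type engrafted arrays read 3.28 to 4.66 for Socs3, close to ProB.

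Of 12 measured BCL2 family genes, which set the threshold of mitochondrial cell death, 6 were higher, against 6.35% of all genes. The median difference was 0.77. The pro-death members Bmf, Pmaip1 (Noxa) and Bbc3 (Puma) rose. Bmf read 3.78 and 4.68 in ProB and 10.26 and 10.28 in PreB (6.04, SE 0.43, adjusted p = 8.36e-05). Bbc3 read 3.0 on both ProB arrays and 5.88 and 4.93 in PreB (2.40, SE 0.33, adjusted p = 0.00255), and Pmaip1 rose by 4.66 (SE 0.31, adjusted p = 5.37e-05). The pro-survival member Bcl2l1 (BCL-XL) rose as well, from 6.29 and 6.20 to 8.32 and 8.95 (2.39, SE 0.30, adjusted p = 0.00167), in 1 of its 4 probe sets, whose mean difference was 0.64. The mean over the 3 probe sets of Bmf was 2.15. None of the 4 overlapped between groups, and both PreB arrays lay above both ProB arrays for 22.4% of all genes. Bcl2l11 (3.90, SE 0.85) and Mcl1 (1.54, SE 0.41) completed the 6; Bcl2l11 lost its call without PreB array 2 (adjusted p 0.0602), PreB array 3 (0.0944) or ProB array 2 (0.0957), and Mcl1 without PreB array 2 (0.131), PreB array 3 (0.157) or ProB array 1 (0.181). Bmf and Pmaip1 remained with the actin gap, and 4 of the 6 with the Xist term.

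Of 16 measured genes of glucose uptake and glycolysis 8 fell in PreB and 1 rose, against 5.19% and 6.35% of all genes. The other 7 did not pass the test, and the median difference was -1.32. Ldha, which makes lactate, read 11.53 and 11.94 in ProB and 8.37 and 8.67 in PreB (-3.22, SE 0.49, adjusted p = 0.00396). Pkm, the pyruvate kinase, read 9.57 and 9.89 against 6.96 and 6.92 (-2.79, SE 0.38, adjusted p = 0.00222). Pdk1, which keeps pyruvate out of the mitochondria, read 10.01 and 9.90 against 8.71 and 8.68 (-1.26, SE 0.13, adjusted p = 0.000717). Slc2a3, the neuronal type glucose transporter, was the gene that rose, from 7.45 and 6.33 to 8.69 and 9.10 (2.01, SE 0.34, adjusted p = 0.00677). Each of the 4 separated the groups, as did 22.4% of all genes upward and 19.4% downward. Without ProB array 2 the list held 3 lower genes instead of 8. None of the 9 remained called with the actin gap, and with the Xist term 2 did, Ldha and Pdk1.

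Of 19 measured immediate early genes, the first genes that a stimulus switches on, 11 rose in PreB, against 6.35% of all genes. The median difference was 3.05. Atf3, a stress-induced factor, read 2.32 on both ProB arrays and 6.69 and 6.43 in PreB (4.24, SE 0.16, adjusted p = 1.43e-06). Klf6 read 6.60 and 6.13 against 10.78 and 10.99 (4.52, SE 0.75, adjusted p = 0.00608), Junb 3.66 and 2.84 against 7.31 and 7.08 (3.95, SE 0.28, adjusted p = 7.7e-05), and Jund 8.30 and 8.75 against 11.98 and 12.05 (3.49, SE 0.48, adjusted p = 0.00244). All 4 had separate groups, and both PreB arrays lay above both ProB arrays for 22.4% of all genes. For Jund 1 of 2 probe sets was called, and their mean difference was 1.75. On the wild type engrafted arrays these genes did not lie alike: Atf3 read 2.32, Junb 4.03 to 4.52 and Klf6 6.08 to 6.93, closer to ProB, whereas Jund read 10.64 to 10.89 and Btg2 8.74 to 9.05, closer to PreB. Leaving out any 1 of the 4 arrays left 6 of the 11 genes called. In the fit with the actin gap, and likewise with the Xist term, 4 remained: Atf3, Btg2, Cd69 and Junb.

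Of 10 measured inducible heat shock genes 2 rose and 2 fell, against 6.35% and 5.19% of all genes. Hspa1a read 2.72 and 2.32 in ProB and 9.98 and 10.16 in PreB (7.55, SE 0.23, adjusted p = 4.64e-07), and Hspa1b 7.86 and 8.53 against 14.08 and 13.91 (5.80, SE 1.02, adjusted p = 0.00799). These neighbouring genes encode nearly the same inducible HSP70 chaperone, so their probe sets may read each other's RNA and the 2 values are not independent. The mitochondrial chaperone Hspd1 went the other way, from 12.86 and 12.55 to 10.62 and 10.20 (-2.30, SE 0.37, adjusted p = 0.00497). Its partner Hspe1 (-1.35, SE 0.26), named after its value was seen, lost its call without PreB array 2 (adjusted p 0.0672) or ProB array 2 (0.068). Hspa1a kept its call with the actin gap and with the Xist term, and the wild type engrafted arrays read 2.32 for it. The 250 bases before the starts of the Hspa1 genes are shown because they are nearly the same: 247 bases are identical, and the 3 that differ, written as the Hspa1a base, the position from 1 at the 5' end of the run and the Hspa1b base, are C44T, T47C and T249G. They lie on the minus strand of GRCm38.p6 at chr17:34972157-34972406 for Hspa1a and chr17:34959239-34959488 for Hspa1b. Capitals mark GAANNTTC, the core of the heat shock element, and CCAAT (as ATTGG), searched on both strands and not overlapping here; GAANNTTC occurs in 6.69% of all promoters of this length and in 5 of the 8 heat shock genes that were matched.
Hspa1a: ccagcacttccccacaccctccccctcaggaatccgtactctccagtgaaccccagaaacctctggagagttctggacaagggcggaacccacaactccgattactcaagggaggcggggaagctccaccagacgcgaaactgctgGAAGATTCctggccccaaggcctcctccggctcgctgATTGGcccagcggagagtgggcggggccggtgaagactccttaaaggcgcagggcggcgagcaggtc
Hspa1b: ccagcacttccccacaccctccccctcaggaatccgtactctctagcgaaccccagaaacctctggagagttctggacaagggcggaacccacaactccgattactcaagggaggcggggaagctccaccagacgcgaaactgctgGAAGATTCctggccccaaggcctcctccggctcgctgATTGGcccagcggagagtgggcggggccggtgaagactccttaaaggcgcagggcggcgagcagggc

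Transcripts of granulocytes were higher on both PreB arrays, and among the 100 genes with the largest rises 7 were granulocyte and 4 NK cell markers. Of 22 measured granulocyte markers 14 rose, against 6.35% of all genes, with a median difference of 3.51, and 13 of the 22 were at the floor in ProB alone. S100a8, a calcium-binding protein that neutrophils hold in bulk, read 3.18 and 3.29 in ProB and 12.02 and 12.85 in PreB (9.20, SE 2.10, adjusted p = 0.024). S100a9, its partner, read 2.66 and 3.40 against 11.12 and 11.80 (8.43, SE 1.67, adjusted p = 0.0133). Both SE hold spread from other groups: the CLP arrays labelled Ly6D- read 2.39 and 10.59 for S100a8, and 2.32 and 8.95 for S100a9. The ProB and PreB values of both genes were far apart, but S100a8 lost its call without any 1 array and S100a9 without PreB array 3 or ProB array 2. Chil3, a chitinase-like protein of myeloid cells, rose from 2.33 and 2.47 to 10.55 and 10.92 (8.34, SE 1.40, adjusted p = 0.00641), and Ltf, the lactoferrin of neutrophil granules, from 2.55 on both to 9.79 and 9.59 (7.15, SE 1.23, adjusted p = 0.0071). Mmp8, a neutrophil collagenase, rose by 4.16 from the floor (SE 0.32, adjusted p = 0.000123). It read 5.83 and 7.14 in PreB, and with the 4 arrays fitted alone its adjusted p was 0.118. The signals of all 22 markers, summed on the linear scale, were 185 and 203 in ProB, 12925 and 20450 in PreB, 370 to 1530 on the wild type engrafted arrays and 2090 to 8927 on the CLP arrays. Itgam, Elane, Csf3r and Ms4a3, the 4 markers of the list at the floor in both groups, gave no difference. In bulk samples fewer cells of a type and less RNA per cell cannot be told apart. Without PreB array 3 the list held 9 calls, with the actin gap Mmp8 remained of the 14, and with the Xist term 3 did.

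Natural killer (NK) cell transcripts were at or near the floor in ProB and high in PreB. Of 19 measured NK markers 13 rose, against 6.35% of all genes, with a median difference of 3.08. In ProB alone, 12 of the 19 were at the floor. Gzma, a granzyme of killer cells, read 2.35 and 2.47 in ProB and 10.31 and 10.95 in PreB (8.22, SE 0.25, adjusted p = 3.9e-07). Eomes, a transcription factor of NK cells, read 2.32 on both ProB arrays and 8.76 and 8.87 in PreB (6.49, SE 0.03, adjusted p = 2.78e-13). Every array outside PreB read 2.32 for Eomes, which makes this SE small. The 4 arrays fitted alone gave it an adjusted p of 0.0112. Ccl5, a chemokine, rose from 2.32 on both to 8.77 and 9.37 (6.75, SE 0.63, adjusted p = 0.000357), and the NK receptor Klra8 from 2.32 on both to 8.13 and 8.66 (6.08, SE 0.13, adjusted p = 3.21e-08). Klrd1 read 3.59 on both ProB arrays against 7.83 and 8.01 (4.33, SE 0.48, adjusted p = 0.000826). Nkg7, a granule protein, rose by 4.10 (SE 0.70, adjusted p = 0.00667), to 6.77 and 7.58 in PreB. Each of these 6 separated the groups, as did 22.4% of all genes upward. The CLP arrays read 6.74 to 7.66 for Klrd1 and 8.17 to 9.32 for Nkg7, the latter above PreB. Gzma, Eomes and Klra8 were at the floor on the CLP arrays, and Ccl5 read 2.32 to 4.99 there. The summed signal was 119 and 105 in ProB, 3133 and 4465 in PreB and 108 to 126 on the wild type engrafted arrays. It was 901 to 1415 on the CLP arrays and 412 to 526 on the Pax5 knockout engrafted arrays. On all 3 wild type engrafted arrays 11 of the 13 called markers were at the floor. So were 15.6% of all genes called higher and 45.2% of all genes. Ncr1, Il2rb and Klrk1 were at the floor in both groups. Of the 13, 7 remained with the actin gap and 10 with the Xist term. T cell markers did not rise with them: the summed signal of 16 was 230 and 196 in ProB and 123 and 158 in PreB, with Cd3e, Cd3g, Cd3d, Cd8a and Cd8b1 at the floor in both.

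**Figure D4:**
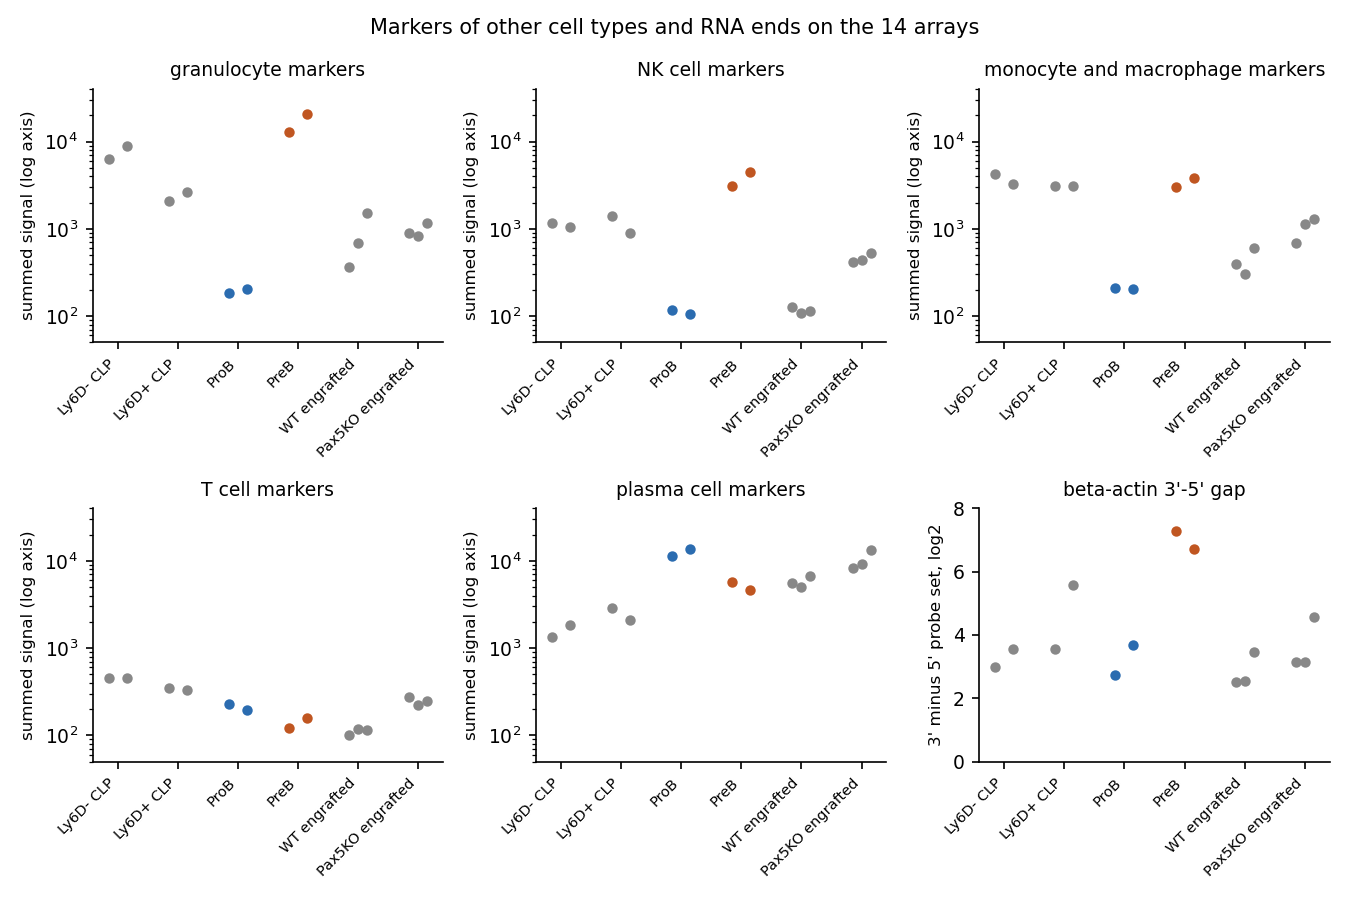
Summed linear signal of the markers of 5 other cell types (log axis) and the beta-actin 3' to 5' gap (log2) on each of the 14 arrays, by group. The PreB arrays (orange) stand highest for granulocyte and NK cell markers and for the actin gap, at 7.27 and 6.71, and the ProB arrays (blue) lie above them for plasma cell markers.

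Monocyte and macrophage markers rose too, in 10 of 19 measured, against 6.35% of all genes, with a median difference of 1.62. The summed signal was 211 and 206 in ProB against 3045 and 3843 in PreB. The CLP arrays read 3093 to 4280, and 6 of the 10 called markers were above the floor on all wild type engrafted arrays. Mpeg1, a pore protein of phagocytes, read 3.95 and 2.82 against 9.64 and 9.21 (6.04, SE 0.54, adjusted p = 0.000289). Cd14, a receptor for bacterial products, rose by 3.94 from the floor (SE 0.14, adjusted p = 1.02e-06), and Lyz2, the lysozyme of myeloid cells, from 5.94 and 6.19 to 9.80 and 10.32 (3.99, SE 0.60, adjusted p = 0.00381). With the 4 arrays fitted alone, Mpeg1, Cd14 and Lyz2 were not called (adjusted p 0.0515 to 0.0764). Without ProB array 2 the list held 6 calls, and 2 of the 10 remained with the actin gap and 7 with the Xist term. Of 10 measured dendritic cell markers 2 rose, against 6.35% of all genes. These were Ccr9 and Siglech (2.03, SE 0.37), and Siglech moved to 1.27 without PreB array 3. Megakaryocyte transcripts appeared on 1 array: Pf4 read 10.31 and Ppbp 8.81 on PreB array 3 and both read 2.32 on PreB array 2 and in ProB. When the 9 lists of other cell types, the antibody genes and the sex-linked transcripts were left out, 1103 genes were higher and 931 lower. The part of other cells in the rise of genes outside these lists was not tested. Of the 209 genes called higher from the floor in ProB, 134 (64.1%) were at the floor on all 3 wild type engrafted arrays. That held for 15.6% of all genes called higher and for 45.2% of all genes.

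Antibody transcripts separated the groups in the opposite direction. Ighg3, the constant region of IgG3, read 9.96 and 10.19 in ProB and 2.91 and 2.45 in PreB (-7.40, SE 0.49, adjusted p = 5.37e-05). It kept its call in every fit described here, in 1 of its 4 probe sets, the other 3 being at the floor. Igha, the constant region of IgA, read 11.91 and 11.95 against 8.12 and 3.36 (-6.19, SE 1.18, adjusted p = 0.0111), in 1 of its 3 probe sets; tested among single probe sets the other 2, with similar differences of -6.16 and -6.31, had adjusted p of 0.0662 and 0.0678. Jchain, which joins secreted IgA and IgM, read 12.00 and 12.22 against 8.64 and 2.59 (-6.50, SE 1.77, adjusted p = 0.0488). For both, PreB array 3 was lower than PreB array 2 by several units. Without PreB array 3 the difference was -3.81 for Igha and -3.48 for Jchain, and without ProB array 2 the adjusted p of Igha was 0.0532. Jchain lost its call without PreB array 3 (adjusted p 0.181), ProB array 1 (0.113) or ProB array 2 (0.172), and with the replicate number as a block (0.0801). Of 9 measured plasma cell markers 2 were higher and 3 lower, against 6.35% and 5.19% of all genes. The summed signal was 11353 and 13762 in ProB and 5667 and 4593 in PreB. It was 8374 to 13122 on the Pax5 knockout engrafted arrays and 4975 to 6761 on the wild type engrafted arrays. The Pax5 knockout arrays read 11.78 to 12.54 for Jchain, near ProB, and 3.14 to 3.28 for Igha. None of the 5 kept its call with the actin gap or the Xist term. Beside Igha and Jchain the lower one was Tnfrsf17, which was at the floor in both groups and was not called without PreB array 2 (adjusted p 0.106) or PreB array 3 (0.11), and the higher ones were Prdm1 (1.97, SE 0.41), which moved to 1.13 without PreB array 2 and lost its call without ProB array 2 (adjusted p 0.0853), and Slamf7 (1.87, SE 0.48), lost without any 1 array (0.109 to 0.146). The part of plasma cells in the ProB arrays was not tested.

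Ighm, the heavy chain gene that both stages transcribe, could not be given 1 direction. Its brightest probe set read 13 and 13.43 in ProB and 14.65 and 14.72 in PreB (1.47, SE 0.30, adjusted p = 0.0158), and lost its call without PreB array 2 (adjusted p 0.0583), PreB array 3 (0.071) or ProB array 1 (0.0659). Of its 11 probe sets 5 were called lower instead, by -6.17 to -9.22. One of those 5 read 11.52 and 11.66 in ProB and 2.37 in PreB, the same on each array. The mean over the 11 fell by 3.75 (adjusted p = 5e-06). Over all genes, 7 of the 1233 called genes with several probe sets had a probe set called in the other direction.

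The list of the 15 largest rises and 15 largest falls that were called in all fits without 1 array held further genes outside the groups above. Among the rises, H1f2, a linker histone, read 6.42 and 7.15 in ProB and 13.83 and 13.74 in PreB (7.0, SE 0.69, adjusted p = 0.000486), in 3 of 3 probe sets. Nuak1, a kinase of the AMPK family, read 2.52 and 2.50 against 9.48 and 8.95 (6.71, SE 0.22, adjusted p = 5.52e-07), and Neurl3, a ubiquitin ligase, 2.46 and 2.35 against 9.05 on both (6.64, SE 0.72, adjusted p = 0.000797). Sertad4 rose from 2.96 and 2.32 to 10.14 and 9.11 (6.99, SE 0.41, adjusted p = 2.76e-05). Nuak1, Neurl3, Sertad4 and H1f2 read 5.96 or more on every wild type engrafted array. Lgals3, a galectin of myeloid cells, rose from 2.62 and 2.50 to 8.87 and 9.47 (6.61, SE 0.85, adjusted p = 0.00182). It read 4.80 to 6.27 on the wild type engrafted arrays, a range that overlaps that of Neurl3, 5.96 to 6.88. Among the falls, Klhl32 went from 7.88 and 7.33 to the floor, at 2.41 and 2.32 (-5.24, SE 0.41, adjusted p = 0.000138). It was called in 1 of its 3 probe sets, whose mean difference was -1.75. Ada, the adenosine deaminase needed by lymphocytes, read 9.39 and 9.79 against 4.33 and 4.79 (-5.03, SE 0.43, adjusted p = 0.000218), and Srm, the spermidine synthase of polyamine metabolism, 10.40 and 11.13 against 5.60 and 6.69 (-4.62, SE 0.74, adjusted p = 0.0053). Tmem97, a sterol-responsive membrane protein, fell by 4.61 to the floor (SE 0.54, adjusted p = 0.00114). All of these separated the groups, which the rule that picked them largely fixed. So did 22.4% of all genes upward and 19.4% downward. Ada, Klhl32 and Nuak1 kept their call under every setting run for them. The remaining falls of the 15 were Abhd14a, 3110082I17Rik, Mtm1, Nt5dc2, Sapcd2, 2010204K13Rik and Mfsd13a, with differences from -4.86 to -4.27. The mean over probe sets was -3.60 for Abhd14a, -2.52 for Sapcd2, -1.48 for Mfsd13a and -1.57 for Mtm1, the last not called.

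**Figure D5:**
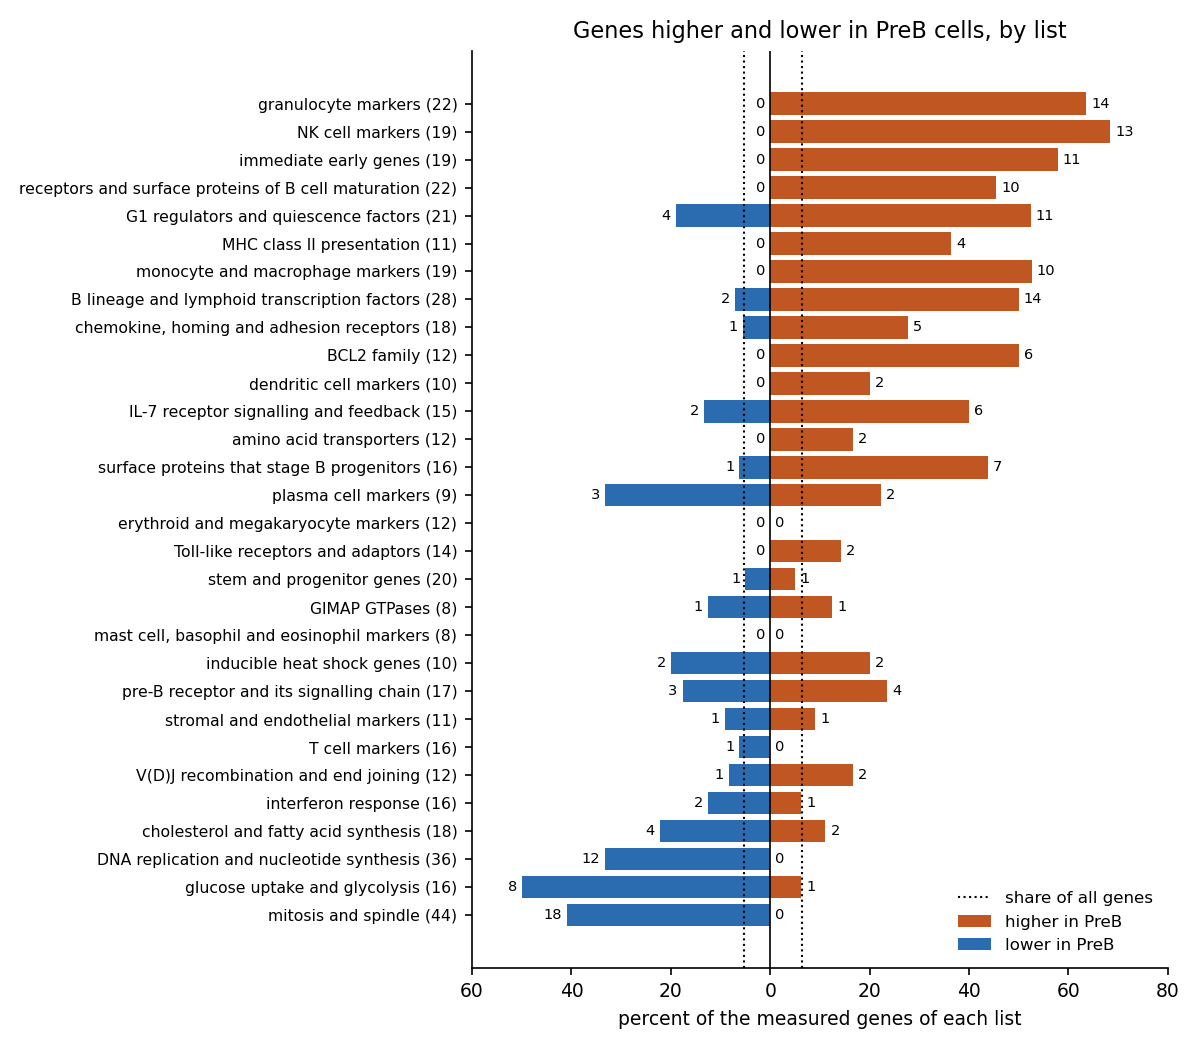
Share of the measured genes of each list that were called higher (orange) or lower (blue) in PreB, in percent, with the number of genes at the end of each bar, the list size in brackets and dotted lines at the share of all genes, 6.35% and 5.19%; the antibody and sex-linked lists, with under 8 genes, are left out. Granulocyte and NK cell markers and immediate early genes have the longest bars to the right, and glycolysis and mitosis the longest to the left.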

How the data were processed

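The series holds 14 arrays in 6 groups. The authors deposited 1 table of log2 signals, with 45101 probe sets. RMA, GCRMA and limma are named in the submitters' processing notes, but their roles and versions are not given in the sources used here. The values were used as deposited, with no further scaling. Of the probe sets 34945 had 1 gene symbol in the platform annotation, 932 had several, 9160 had none and 64 were controls; 34741 were matched in the RefSeq table of GRCm38.p6. Each of 18193 genes was given by the probe set that was brightest on average across the 14 arrays (9010 genes had several).

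The test was limma's moderated statistic (version 3.58.1, R 4.3.3) from a model with a mean per group over all 14 arrays and 8 residual degrees of freedom, two-sided, with Benjamini-Hochberg adjustment over all genes and a threshold of 0.05. SE is that of the fit, from a spread pooled over all 6 groups. Variation within another group widens it, and a floor shared by the other groups narrows it. The steps were tested on simulated data. The number of arrays limits the precision. The closing section gives the effect of other scalings, filters, probe set rules, covariates and left-out arrays.

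The comparison, the 32 gene lists (521 of 580 entries measured) and the genes fixed by name were chosen with earlier results of these data known. Genes were named by rule: the 15 largest rises and 15 largest falls called in all 5 fits (all arrays, and without each of the 4), up to 5 genes of each list called in all 5 or else the 2 with the largest difference, and fixed stage and other cell genes. Promoter sequences are RefSeq's, GRCm38.p6.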

Additional observations from a re-analysis of the deposited data

How the results depend on the processing

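The number of arrays limits every result. Of 111 named genes called, 45 remained called in a fit of the 4 arrays alone, 37 with the actin gap as a covariate and 66 with the Xist term; the last 2 were chosen after seeing the data. The counts of higher and lower genes (1156 and 944) were 294 and 193 with the 4 arrays alone, 224 and 118 with the actin gap, 546 and 200 with the Xist term, and 550 and 396 at an adjusted p under 0.01, where a stricter threshold leaves fewer genes by construction. For the other 3 the cause was not tested. Leaving out 1 array gave 773 to 1189 higher and 532 to 1827 lower genes. Array medians set equal, filters on dim or floor genes, means of probe sets, array weights, an intensity trend and single probe sets kept both counts within 1.5 times. Under means of probe sets the difference of Ighm was -3.75 instead of 1.47, and that of Sparc 0.15 instead of -1.10; the cause was not tested, but the probe sets of Ighm disagree.

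The replicate numbers in the descriptions were not taken as a pairing: the deviations of same-numbered arrays correlated at r = 0.089 over 9031 genes, with 2 pairs. With the replicate number as a block, 1290 genes were higher and 1008 lower, and of the named genes Jchain lost its call (adjusted p 0.0801).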

Other observations

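Lipid synthesis changed in both directions. Of 18 measured genes of cholesterol and fatty acid synthesis 4 were lower and 2 higher in PreB, against 5.19% and 6.35% of all genes. The median difference was -0.89. Sqle, an early enzyme of the sterol branch, read 6.68 and 7.0 in ProB and 3.39 and 2.81 in PreB (-3.74, SE 0.63, adjusted p = 0.00659). Insig1, which holds back sterol synthesis, rose from 5.34 and 5.12 to 9.01 and 9.86 (4.20, SE 0.53, adjusted p = 0.00163). Both separated the groups, as did 22.4% of all genes upward and 19.4% downward. The other calls, outside the naming rule, were Fasn (-2.69, SE 0.49), Acaca (-2.17, SE 0.45), Fdps (-1.67, SE 0.37) and Scd1 (2.33, SE 0.45). Each of these 4 lost its call without ProB array 2, with adjusted p of 0.0559, 0.0938, 0.053 and 0.0656. Without PreB array 2, Fasn (0.0518) and Scd1 (0.0587) lost theirs, without PreB array 3 Acaca (0.0882) and Fdps (0.12), and without ProB array 1 Fdps (0.081). Without ProB array 2 the list held 1 lower and 1 higher gene. With the actin gap none of the 6 kept its call, and Insig1 did with the Xist term. Of 12 measured amino acid transporters 2 rose, Slc38a2 (2.22, SE 0.33, adjusted p = 0.0035) and Slc1a4 (2.75, SE 0.53, adjusted p = 0.0123), the latter not without PreB array 2 (adjusted p 0.0684), and neither with the actin gap or the Xist term.

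Among 16 measured genes of the interferon response 1 was higher and 2 lower, against 6.35% and 5.19% of all genes. The other 13 did not pass the test. Rsad2 rose from 2.77 and 2.72 in ProB to 6.11 and 6.86 in PreB (3.74, SE 0.64, adjusted p = 0.00723), and Oas1a fell from 7.08 and 7.67 to 4.41 and 4.67 (-2.84, SE 0.43, adjusted p = 0.00392). Both are antiviral effectors. Rsad2 was called in 1 of its 3 probe sets, whose mean difference was 1.27. It kept its call neither with the actin gap nor with the Xist term. Usp18, which dampens the response and was named after its value was seen, fell by 2.04 (SE 0.53, adjusted p = 0.0408) but not without any 1 array (adjusted p 0.112 to 0.159). Of 8 measured GIMAP genes, GTPases of lymphocyte survival that lie side by side, 6 did not pass the test. The list held 1 rise and 1 fall, against 6.35% and 5.19% of all genes. Gimap9 rose from 7.05 and 6.63 to 8.47 and 8.65 (1.72, SE 0.20, adjusted p = 0.00123) and Gimap7 fell from 6.93 and 7.36 to 4.79 and 4.84 (-2.33, SE 0.41, adjusted p = 0.0081), the latter not without ProB array 2 (adjusted p 0.0508). For Gimap7, 1 of its 2 probe sets was called, and their mean difference was -1.38 (adjusted p = 0.19). Of 20 measured stem and progenitor genes 18 did not pass the test, 1 rose and 1 fell, which are shares below the 6.35% and 5.19% of all genes. Egfl7 fell, from 7.29 and 8.29 to 3.44 and 4.63 (-3.75, SE 0.44, adjusted p = 0.00112), and Sox4, a factor of progenitors, rose from 9.12 and 10.03 to 12.76 and 12.68 (3.14, SE 0.46, adjusted p = 0.00329). Of their probe sets 2 of 4 and 3 of 8 were called, and the mean differences over them were -2.24 and 1.34. Among 14 Toll-like receptors and adaptors Cd14 rose, as above, and so did Unc93b1, which carries these receptors to the endosome (1.62, SE 0.35, adjusted p = 0.0187), though not without PreB array 3 (adjusted p 0.0937), ProB array 1 (0.0695) or ProB array 2 (0.0555).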
